A study of Mus musculus with 18 samples.

Results

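Fatty acid uptake and oxidation were followed here through 39 genes, a list named by symbol and chosen by function, of the 34150 genes with a value in each library. The list was chosen with earlier results of these data known, so it is not independent of them. All 39 passed the filter on low values, which kept 13710 genes. The 18 libraries hold total RNA of mouse heart tissue after removal of ribosomal RNA: 6 are of control mice, 6 of mice labelled MI (myocardial infarction) and 6 of mice labelled HXP, which by the title of the series is a treatment given in acute infarction. The sources used here do not say what HXP abbreviates, its dose, when infarction, treatment and collection took place, how infarction was made, what the controls underwent, or which part of the heart was taken. They give no sex, age or strain, and do not state that each HXP mouse had an infarct. Levels are in FPKM, which scales reads to exon length and library size. The length was inferred to be that of all annotated exons merged, such as 8730 bases for Hadha and 823 for Fabp3. Levels of different genes can thus be set side by side only roughly.

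Heart muscle takes most of its energy from long-chain fatty acids. These enter the cell through the transporter Cd36 and related carriers, are bound by Fabp3, and are activated to acyl-CoA by Acsl1. The carnitine shuttle, with the gatekeeper Cpt1 on the outer mitochondrial membrane, carries the acyl groups to the matrix, where rounds of dehydrogenation, hydration, dehydrogenation and thiolysis remove acetyl-CoA. The electron transfer flavoprotein passes the electrons of the acyl-CoA dehydrogenases to the respiratory chain, and malonyl-CoA inhibits Cpt1. In the adult heart the muscle isoform Cpt1b dominates over the liver isoform Cpt1a, and a lower expression of the pathway with a return towards fetal isoforms is a known feature of the failing heart.

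Bases upstream of the start of 3 genes are shown to give the context of members named in the results. By RefSeq starts, Hadhb shares its upstream region with its partner Hadha. Acadm and Cpt1a differed from control in opposite directions in MI. RNA levels do not test these bases. The sequences are those of RefSeq on GRCm38.p6, 5′ to 3′ on the strand of the gene, 250 bases ending at the base before the start. Capitals mark the hexamer AGGTCA, the core of nuclear receptor elements, on either strand.
Hadhb, chr5:30155003-30155252, plus strand: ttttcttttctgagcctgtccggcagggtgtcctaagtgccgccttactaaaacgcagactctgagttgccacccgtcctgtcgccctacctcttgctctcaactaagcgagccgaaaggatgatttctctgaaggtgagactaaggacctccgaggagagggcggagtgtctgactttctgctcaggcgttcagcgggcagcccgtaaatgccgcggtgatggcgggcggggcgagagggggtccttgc
Acadm, chr3:153944644-153944893, minus strand: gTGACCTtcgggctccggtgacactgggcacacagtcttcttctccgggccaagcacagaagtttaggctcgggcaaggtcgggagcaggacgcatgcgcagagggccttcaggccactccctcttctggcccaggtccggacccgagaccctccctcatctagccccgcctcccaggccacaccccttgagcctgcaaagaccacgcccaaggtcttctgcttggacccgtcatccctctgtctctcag
Cpt1a, chr19:3323051-3323300, plus strand: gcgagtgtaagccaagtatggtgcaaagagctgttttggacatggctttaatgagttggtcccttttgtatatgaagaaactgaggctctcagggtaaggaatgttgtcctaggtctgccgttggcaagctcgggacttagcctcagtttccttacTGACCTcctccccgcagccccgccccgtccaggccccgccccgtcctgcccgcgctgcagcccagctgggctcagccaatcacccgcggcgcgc

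Hadha and Hadhb lie head to head on chromosome 5. Their RefSeq starts, at 30154980 on the minus strand and 30155253 on the plus strand, are 273 bases apart. By these starts the Hadhb sequence above is also upstream of Hadha. In GENCODE M21 Hadha extends to 30155162, so part of the sequence lies within that gene. The GENCODE Cpt1a gene begins at 3322334, so the Cpt1a sequence lies within it. The Hadhb sequence held no match to the hexamer. The Acadm and Cpt1a sequences held 1 match each, on the opposite strand, beginning 249 and 94 bases before the start. Of the 39 genes, 34 had an entry in the RefSeq promoter table (250 bases before to 50 after the start), and Crat, Cpt1b, Acaa2, Decr1 and Acot13 had none. AGGTCA on either strand was present for 7 of the 34 (20.6%: Acacb, Acadm, Acadvl, Cd36, Cpt1a, Echs1 and Ucp3), and for 18.1% of the 27025 genes in the table. The longer AAGGTCA, which contains AGGTCA, was present for 2 of 34 (5.88%, Acacb and Acadm) and for 5.38% of all genes. TCAAGGTCA, the extended element bound by estrogen-related receptors, was present for 0 of 34 and for 0.466% of all genes.

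From the steps between FPKM values, the depth was 75.7 to 80.9 M reads. The labelled tissue was met by its markers: the mean log2(FPKM + 1) of 10 cardiomyocyte genes lay between 9.72 and 9.87 in control, between 9.29 and 9.83 in MI, and between 9.23 and 9.999 in HXP. Other tissues were present in single libraries. MI 5 held lung epithelial markers (mean of 6 genes 5.28, where no other library passed 0.14) and MI 4 skeletal muscle markers (mean of 7 genes 5.12, where no other library passed 3.30). White adipocyte markers (mean of 6 genes) ran from 0.14 to 3.79 in MI and from 0.01 to 4.81 in HXP. In control they reached at most 0.29. Ucp1, the defining gene of brown fat, was at 0 to 0.03 FPKM in every library. The mean of all 5 brown adipocyte markers was still higher in each MI library (at least 2.76) than in any control (at most 2.65). The HXP libraries, with a lowest mean of 2.42 and a highest of 2.89, overlapped both groups. Of the 3 brown markers tested, Dio2 rose in MI (limma adjusted p = 0.0127), while Cidea and Cox8b did not pass. The source of the Dio2 signal was not tested. The library numbers fell into 3 runs, which are numbers and not stated batches: control 2 and 5 with MI 5, control 1 with HXP 1, 3, 4 and 6, and the other 10. In bulk tissue, fewer cells of a type and less RNA per cell cannot be told apart. Of the reads, mitochondrial genes took between 36.4% and 42.7% in control, between 20.4% and 33.2% in MI, and between 20.6% and 45.5% in HXP, a share that enters the scaling of every FPKM value. The labels do not say that libraries are of separate mice, so p-values measure only the spread between these libraries, which may be technical. MI 1 and MI 2 were the closest MI pair (correlation over the genes tested 0.9895). Other MI pairs reached at most 0.9724 and control pairs 0.9893. Whether MI 1 and MI 2 are of separate mice was not tested, and a fit with them averaged is given below.

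In control hearts the members spanned more than 3 orders of magnitude in FPKM, in an order that depends on the exon lengths used. Fabp3, the cytosolic fatty acid binding protein of muscle, stood highest at 2835 ± 214 FPKM (SD, n = 6). Acaa2, the mitochondrial thiolase, followed at 480.2 ± 47.2 FPKM, then Acadl at 391 ± 35.8 FPKM and Etfb at 312 ± 26.1 FPKM (SD, n = 6 each). Fabp3 was above Acaa2 in every control library, whereas Acaa2 and Acadl overlapped. Etfb, Cd36, Etfa, Acadvl and Acadm followed each other between 312 and 258 FPKM with overlapping ranges. At the low end stood Acot1 with 1.95 ± 0.665 FPKM and Acad10 with 0.873 ± 0.166 FPKM (SD, n = 6 each). The muscle isoform Cpt1b was at 143 ± 12.5 FPKM and the liver isoform Cpt1a at 11.7 ± 2.47 FPKM (SD, n = 6 each). The median coefficient of variation of the 39 genes was 8.74% in control, 20.9% in MI and 26.7% in HXP.

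**Figure D1:**
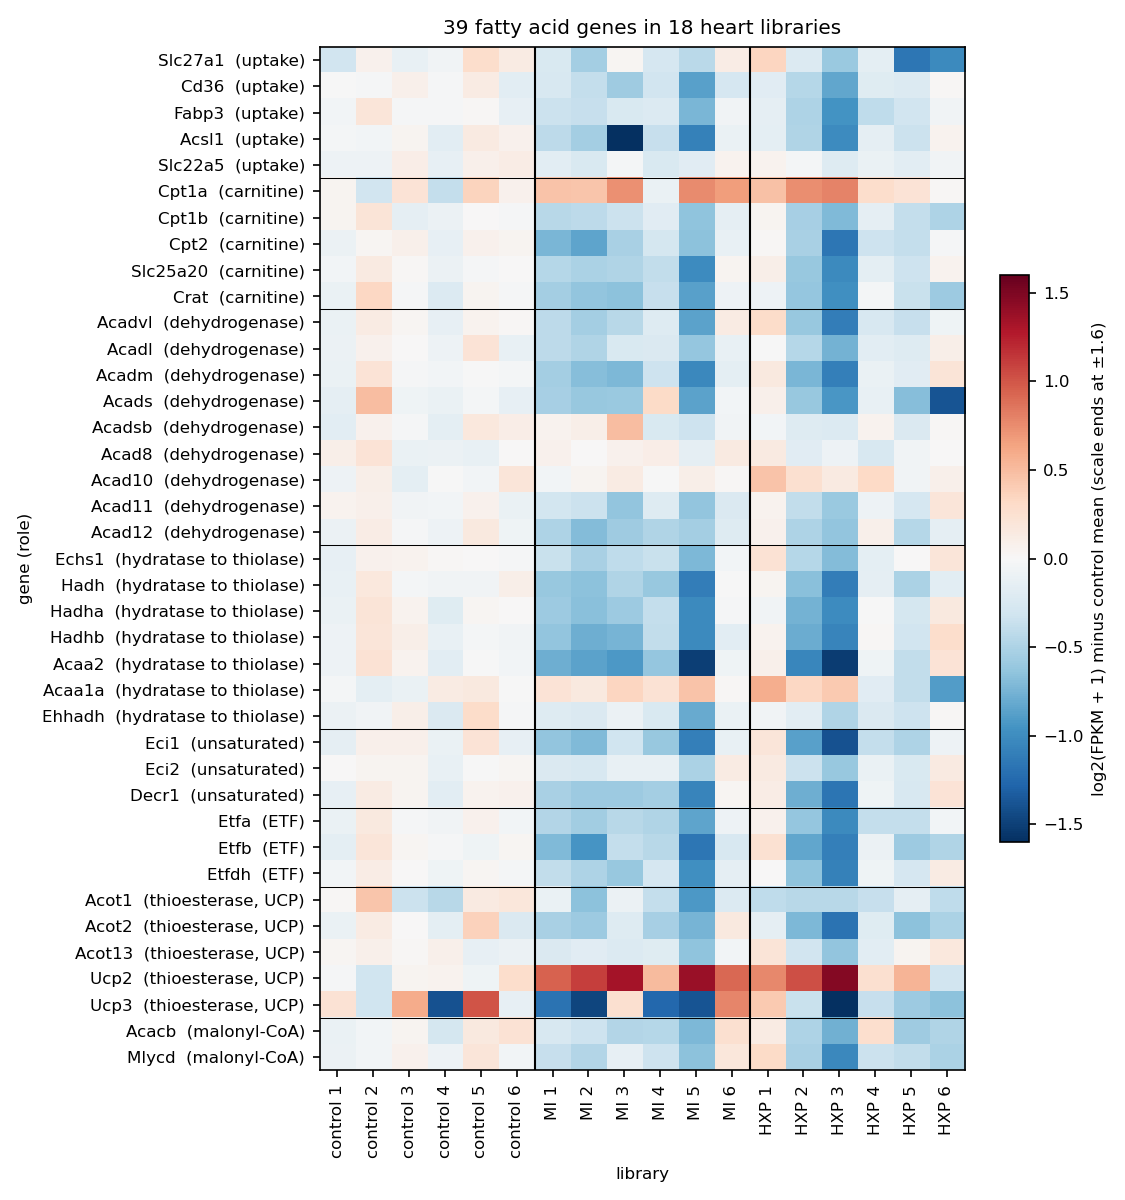
Difference of log2(FPKM + 1) from the control mean for each of the 39 genes (vertical, by role) in each of the 18 libraries (horizontal), in blue where lower and red where higher. MI 1 to MI 5 and HXP 2, 3 and 5 are blue over most genes, MI 6 and HXP 1 are near the controls, and Cpt1a and Ucp2 are red in most MI and HXP libraries.

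MI was set against control first. Enzymes of every step from activation to electron transfer were lower in MI: 21 of the 39 genes fell and 2, Cpt1a and Ucp2, rose (limma, adjusted p below 0.05 over all genes tested). Of the 21, the mean of Acadl fell by 21.4% and that of Acaa2 fell by 39.97%, with the others in between. The other 16 did not pass. Over all genes tested, 3.21% were called lower and 40.1% higher. The median log2 fold change of the 39 was -0.40, against 0.27 over all genes, and 33 of the 39 were negative. For 8 members every MI library was below every control library (Cd36, Acadl, Acadm, Acad11, Acad12, Hadhb, Etfb and Etfdh), against 1.39% of all genes. For 1 member, Ucp2, every MI library was above every control, against 27.9% of all genes.

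The count of calls depended on MI 5. MI 5 was the lowest MI library for 28 of the 39 genes, and without it 1 member fell (Acad12, log2 fold change -0.49, adjusted p = 0.0420) and 1 rose (Ucp2, 0.96, adjusted p = 0.0420), where 0.926% of all genes were lower and 18.4% higher, while 33 stayed negative with a median of -0.34. Within the run of 10 libraries (3 control and 5 MI) no member was called (0.0365% of all genes lower and 0.54% higher), 33 were negative and the median was -0.27. Scaling moved the counts: where each library was divided by its median ratio to the geometric mean, 32 members fell and 1 rose (15.1% and 17.5% of all genes), with a median of -0.76 (0.00 over all genes), and with scaling to the cardiomyocyte markers 12 fell and 2 rose (0.97% and 50.6% of all genes), with a median of -0.18 (0.43 over all genes).

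Among genes of uptake and activation, 2 of 5 fell and the other 3 had negative values that did not pass. Cd36, the main fatty acid translocase, had 260.3, 289 and 319 FPKM as lowest, median and highest in control, and 159.6, 229.6 and 243 in MI. Every MI library was below all controls, with a log2 fold change of -0.44 (SE 0.13, adjusted p = 0.0195). Acsl1, the main long-chain acyl-CoA synthetase of heart muscle, had 69.3, 78.2 and 86.4 FPKM in control and 24.0, 55.7 and 72.8 in MI (log2 fold change -0.70, SE 0.22, adjusted p = 0.0225), where only MI 6 reached the control range. Fabp3 had 2587, 2789.8 and 3229.9 FPKM in control and 1710.4, 2303 and 2719 in MI, and its log2 fold change of -0.33 (SE 0.14) missed the threshold (adjusted p = 0.0652). Slc27a1, a fatty acid transport protein, and Slc22a5, the carnitine transporter, had log2 fold changes of -0.22 (adjusted p = 0.378) and -0.14 (adjusted p = 0.147).

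All 5 genes of the carnitine shuttle were called, 4 lower and 1 higher. Cpt1b, the muscle carnitine palmitoyltransferase, had 128, 142 and 164 FPKM in control and 90.8, 109 and 129 in MI, lowest in MI 5 (log2 fold change -0.36, SE 0.12, adjusted p = 0.0266). Cpt2, which re-forms acyl-CoA in the matrix, fell by 0.53 on the log2 scale (SE 0.17, adjusted p = 0.0228), with 66.7 ± 4.24 FPKM in control and 46.6 ± 9.49 in MI (SD, n = 6 each). The carnitine-acylcarnitine carrier Slc25a20 fell by 0.46 (adjusted p = 0.0413). Crat, carnitine acetyltransferase, had 56.8, 65.4 and 83.6 FPKM in control and 36.0, 43.9 and 62.9 in MI (log2 fold change -0.52, SE 0.16, adjusted p = 0.02001). For each of these 4 genes 5 of 6 MI libraries were below all controls.

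Cpt1a went the other way. It had 8.62, 12.01 and 14.9 FPKM as lowest, median and highest in control and 10.6, 17.6 and 20.1 in MI, with 5 of 6 MI libraries above all controls and MI 4 inside their range. Its log2 fold change was 0.49 (SE 0.17, adjusted p = 0.0307). This call depended on the scaling: the value was 0.14 (adjusted p = 0.418) with median-ratio scaling and 0.70 (adjusted p = 0.0255) with scaling to cardiomyocyte markers.

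**Figure D2:**
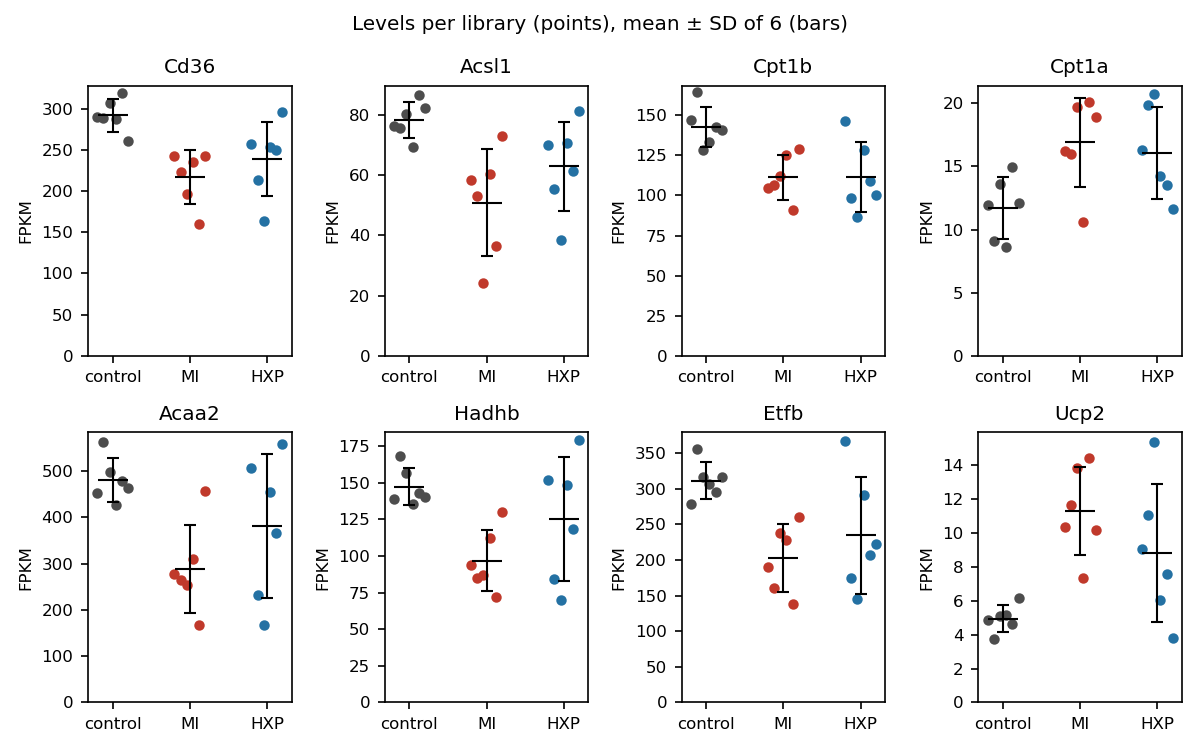
FPKM of 8 genes (vertical axes, from 0) in the 6 libraries of each group (points), with the mean and SD of the group (bars). Cd36, Hadhb and Etfb have all 6 MI points below the controls, Ucp2 has all 6 above, and the HXP points spread widely, for Acaa2 from 167 to 558 FPKM.

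Of the 9 acyl-CoA dehydrogenases and related genes, which take the opening step of each round of oxidation, 4 fell. Acadm, the medium-chain enzyme, had 239, 253 and 298 FPKM in control and 125, 168 and 231 in MI, with every MI library below all controls (log2 fold change -0.58, SE 0.19, adjusted p = 0.0279). Acadl, the long-chain enzyme, fell by 0.35 (SE 0.13, adjusted p = 0.0391). Acad12 had 13.0, 13.5 and 15.7 FPKM in control and 8.28, 9.43 and 11.98 in MI (log2 fold change -0.50, SE 0.12, adjusted p = 0.0143). Acad11 had 14.6, 15.9 and 16.7 FPKM in control and 9.81, 12.4 and 13.5 in MI (log2 fold change -0.39, SE 0.12, adjusted p = 0.0219). These groups do not overlap for any of the 4 genes.

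The very-long-chain enzyme Acadvl had 253, 282 and 303 FPKM in control and 153, 205 and 305 in MI. Here 5 MI libraries were below all controls and MI 6 was above them, and the fitted value, -0.39 (SE 0.19), missed the threshold (adjusted p = 0.0974). Acads, the short-chain enzyme, had 50.4, 52.5 and 79.5 FPKM in control and 30.4, 37.7 and 69.8 in MI (log2 fold change -0.39, adjusted p = 0.168). Acadsb and Acad8, which act on branched-chain amino acid products, and Acad10 did not pass, with log2 fold changes of 0.00, 0.04 and 0.04. Acadsb had 8.96, 10.3 and 11.5 FPKM in control and 7.83, 10.1 and 14.6 in MI, and Acad8 7.58, 8.05 and 9.79 in control and 7.42, 8.76 and 9.24 in MI. Acad10 had 0.679, 0.835 and 1.13 FPKM in control and 0.812, 0.903 and 1.05 in MI, so that the groups overlap for all 3.

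The later steps of the cycle fell in 5 of 7 genes. Hadha and Hadhb encode the alpha and beta subunits of the trifunctional protein, which holds hydratase, dehydrogenase and thiolase activity for long chains. Hadha had 122, 141 and 161 FPKM in control and 68.5, 93.0 and 138 in MI (log2 fold change -0.54, SE 0.19, adjusted p = 0.0298). Hadhb had 136, 142 and 168 FPKM in control and 72.0, 90.6 and 130.1 in MI (log2 fold change -0.62, SE 0.20, adjusted p = 0.0228). The ranges do not overlap for Hadhb, and for Hadha only MI 6 reached the controls.

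Acaa2 had the most negative fold change of the 39, with 427, 471 and 563 FPKM in control and 168, 270.5 and 457 in MI (log2 fold change -0.79, SE 0.26, adjusted p = 0.0274). MI 6, at 457 FPKM, was inside the control range and the next MI library was at 310.4 FPKM. Hadh, the short-chain hydroxyacyl-CoA dehydrogenase, had 91.8, 96.5 and 112 FPKM in control and 45.6, 65.2 and 99.1 in MI (log2 fold change -0.58, SE 0.18, adjusted p = 0.0223). Echs1, the short-chain enoyl-CoA hydratase, had 31.4, 35.0 and 36.4 FPKM in control and 20.6, 26.3 and 33.4 in MI (log2 fold change -0.40, SE 0.14, adjusted p = 0.0336).

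Both peroxisomal members of this group did not pass. Ehhadh, the peroxisomal bifunctional enzyme, had 3.73, 4.41 and 5.82 FPKM in control and 2.18, 3.75 and 4.20 in MI (log2 fold change -0.28, SE 0.12, adjusted p = 0.0692). Acaa1a, the peroxisomal thiolase, had 9.42, 10.5 and 11.97 FPKM in control and 10.8, 12.6 and 14.9 in MI (log2 fold change 0.24, adjusted p = 0.299). Reads of Acaa1a could be shared with its near-identical neighbour Acaa1b, so its value is uncertain.

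Enzymes for unsaturated chains and the electron transfer flavoprotein followed the main direction. Eci1, an enoyl-CoA isomerase, fell by 0.58 on the log2 scale (SE 0.21, adjusted p = 0.0392) and Decr1, the mitochondrial dienoyl-CoA reductase, by 0.54 (SE 0.21, adjusted p = 0.0440), while Eci2 had a value of -0.18 (adjusted p = 0.219). All 3 genes of the flavoprotein system fell. Etfa, its alpha subunit, had 268, 283 and 321 FPKM in control and 160.0, 208 and 272 in MI (log2 fold change -0.48, SE 0.16, adjusted p = 0.0247). Etfb, the beta subunit, had 278, 312 and 356 FPKM in control and 139, 209.7 and 260.3 in MI (log2 fold change -0.65, SE 0.20, adjusted p = 0.0201). Etfdh, the ubiquinone oxidoreductase that takes over the electrons, fell by 0.48 (SE 0.18, adjusted p = 0.0371). For Etfb and Etfdh the groups do not overlap.

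The uncoupling proteins Ucp2 and Ucp3, neighbours on chromosome 7 with 6904 bases between them, did not move alike. Ucp2, which immune cells also express strongly, had 3.76, 4.98 and 6.19 FPKM in control and 7.37, 11.003 and 14.4 in MI, a mean 128% higher (log2 fold change 1.03, SE 0.23, adjusted p = 0.0139). It kept its call in 26 of 28 alternatives. Macrophage markers were also higher in MI (5 of 6 called, mean log2 level 3.45 to 4.84 in MI and 3.07 to 3.42 in control), and their part in the Ucp2 value was not tested. Ucp3, the muscle form, had 4.60, 14.3 and 28.5 FPKM in control and 4.29, 5.30 and 24.1 in MI. Its spread within control was the widest of the 39 genes (coefficient of variation 53.7%), and the fitted value, -0.71 (SE 0.46), missed the threshold (adjusted p = 0.206).

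The acyl-CoA thioesterases release free fatty acids from acyl-CoA. Acot1, the cytosolic form, had 1.13, 2.06 and 2.92 FPKM in control and 0.530, 1.35 and 1.72 in MI, and its fall passed narrowly (log2 fold change -0.40, SE 0.16, adjusted p = 0.0486) with overlapping groups. Acot2, the mitochondrial form, had 19.0, 21.8 and 29.4 FPKM in control and 13.1, 15.3 and 25.1 in MI (log2 fold change -0.41, SE 0.18, adjusted p = 0.0667). Acot1 and Acot2 are near-identical neighbours on chromosome 12, so that reads may be split between them and their separate values are uncertain. Acot13 had a log2 fold change of -0.25 (adjusted p = 0.121). Of the enzymes that set malonyl-CoA, neither passed. Acacb, which makes it at the mitochondrion, had 29.6, 36.2 and 42.7 FPKM in control and 21.7, 27.3 and 43.4 in MI (log2 fold change -0.33, adjusted p = 0.136), and Mlycd, which degrades it, had 23.6, 24.5 and 28.8 in control and 15.6, 19.5 and 28.6 in MI (log2 fold change -0.30, adjusted p = 0.152).

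**Figure D3:**
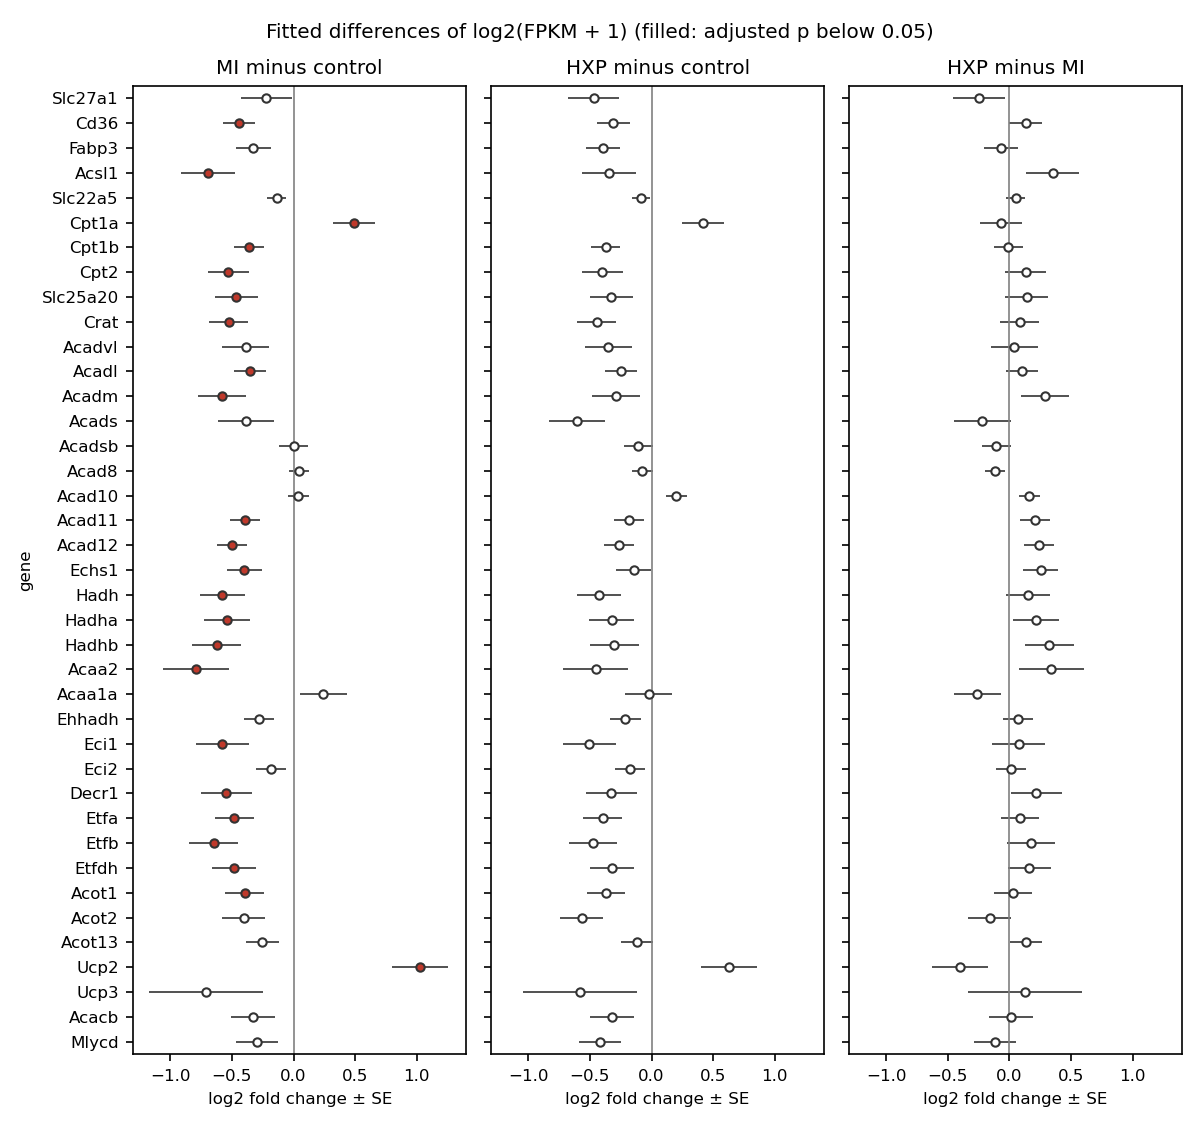
Fitted difference of log2(FPKM + 1) with its standard error (horizontal) for each of the 39 genes (vertical) in the 3 comparisons, filled where the adjusted p was below 0.05. In MI against control 21 filled points lie left of 0 and 2 right of it, and the other comparisons have none.

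Within MI, MI 6 and MI 5 stood at opposite ends for most genes. MI 6 stood near the controls: its median difference from the control mean over the 39 genes was -0.05 on the log2 scale, 8 genes were below the lowest control, and it was the highest MI library for 29 genes. In the other MI libraries the median ran from -0.74 (MI 5) to -0.31 (MI 4), with 26 to 34 genes below the lowest control. For 16 genes exactly 5 of 6 MI libraries were below every control, and in all 16 the exception was MI 6. For these counts the share of all genes was not counted, so they describe the libraries and are not particular to the members. Cpt1a (18.9 FPKM) and Ucp2 (10.2 FPKM) were above all controls in MI 6 as well. The same library had the lowest level of fibroblast and matrix markers in MI (mean log2 level of 7 genes 4.97, against 6.29 to 7.27 in the other MI libraries and 3.33 to 3.83 in control) and the highest of cardiomyocyte markers (9.83), and MI 5 had the highest (7.27) and the lowest (9.29). All 7 fibroblast and matrix markers rose in MI. Of the 10 cardiomyocyte markers 2 fell (Tnni3 and Pln), with a median log2 fold change of -0.34. The cardiomyocyte list was mixed: Mybpc3 (0.14), Actn2 (0.11) and Actc1 (0.09) had positive values that did not pass. In MI 5, Mybpc3 (835 FPKM) and Actc1 (5228 FPKM) were above all controls. The mitochondrial share of reads was 33.2% in MI 6 and 20.4% in MI 5, the highest and lowest of MI. The part of these levels in the member values was not tested.

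**Figure D4:**
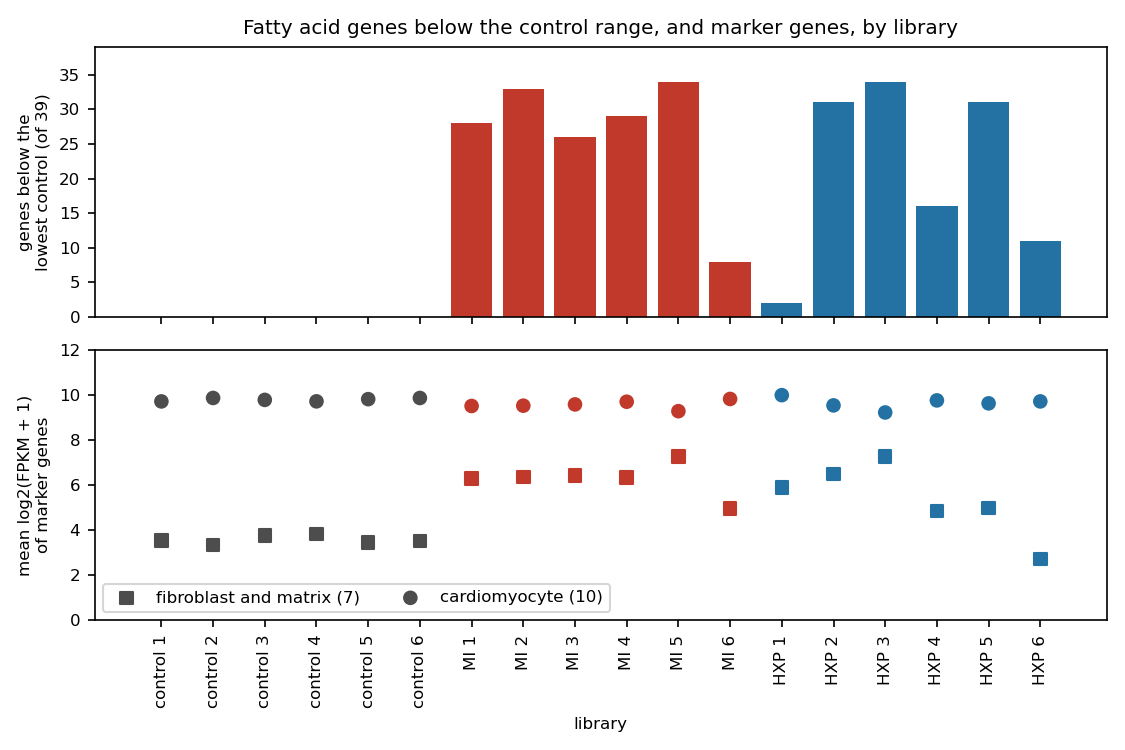
Number of the 39 genes below the lowest control library (upper panel, bars from 0) and mean log2(FPKM + 1) of 10 cardiomyocyte and 7 fibroblast and matrix markers (lower panel) in each library. MI 5 and HXP 3 have the most genes below the controls (34 each) and the highest matrix level (7.27), and MI 6 and HXP 1 the fewest of their groups (8 and 2). The share of all genes below the controls was not counted.

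HXP was then set against control. No member was called (0.219% of all genes were lower and 0.0948% higher). Of the 39, 18 had an unadjusted p below 0.05 (limma). Acad12, for one, had an unadjusted p of 0.0451 and an adjusted p of 0.144 (limma). The share of all genes below that unadjusted p was not counted, so the 18 are not a result about the members. Most values were below 0: 36 of 39 values were negative, with a median of -0.32 against 0.16 over all genes, and this comparison shares its 6 control libraries with that of MI. The median was -0.19 without HXP 3, -0.17 (30 negative) with scaling to cardiomyocyte markers and -0.53 with median-ratio scaling. No member had every HXP library below or above every control, against 0.569% and 1.13% of all genes. The smallest adjusted p belonged to Acot2, which had 9.38, 14.8 and 20.3 FPKM in HXP (log2 fold change -0.57, SE 0.18, adjusted p = 0.0893).

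The next lowest were Cpt1b, with 86.8, 105 and 146 FPKM in HXP (log2 fold change -0.37, adjusted p = 0.0925), and Fabp3, with 1453, 2211 and 2717 FPKM (-0.40, adjusted p = 0.0995). Crat had 33.2, 47.7 and 65.1 FPKM in HXP (log2 fold change -0.44, adjusted p = 0.101), Acads 20.9, 35.5 and 59.6 (-0.61, adjusted p = 0.107) and Etfa 142, 221 and 302 (-0.40, adjusted p = 0.112). In all 6 genes the HXP libraries reached into the control range. The 3 members with positive values were Ucp2, Cpt1a and Acad10. Ucp2 had 3.78, 8.33 and 15.4 FPKM in HXP (log2 fold change 0.63, SE 0.23, adjusted p = 0.101), Cpt1a 11.7, 15.3 and 20.8 (0.42, SE 0.17, adjusted p = 0.116) and Acad10 0.803, 1.14 and 1.55 (0.20, adjusted p = 0.125).

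Without HXP 6, 6 members fell (Acot2, Cd36, Cpt1b, Cpt2, Etfa and Fabp3) and 2 rose (Cpt1a and Ucp2), where 2.78% of all genes were lower and 28.1% higher. In HXP 6 matrix markers were below every control (2.71), and the difference from the control mean went with base composition. Over the 39 members, Pearson's r between the GC content of the longest transcript and the log2 difference from the control mean was -0.68 in HXP 6 and -0.34 in HXP 5, against -0.03 to 0.32 in MI, -0.25 to 0.13 in control and 0.42 in HXP 1. Over all 13692 genes with a GC value it was -0.48 in HXP 6 and -0.32 in HXP 5. These are descriptions over genes of 1 library, which share its preparation. Members rich in GC were low in HXP 6, such as Acads (GC 59.7%, difference -1.38) and Slc27a1 (56.9%, -1.02), while Hadhb (39.1%, 0.28) and Cd36 (38.4%, 0.02) were not. With the trend over all genes subtracted in each library, 0 members fell and 1 rose (Ucp2) in HXP against control (4.09% and 3.83% of all genes). When HXP 6 was also left out, 14 fell and 1 rose (9.86% and 13.0% of all genes). Subtracting the trend also recentres each library, as a scaling does: the median over all genes went from 0.16 to 0.01 in HXP against control. The part of base composition alone in these counts was not tested.

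The HXP libraries spread widely. Counts of members outside the control range are given here without the share of all genes, which was not counted. HXP 3 was the lowest HXP library for 30 of the 39 genes (median difference from the control mean -0.93, 34 genes below the lowest control). HXP 2 and HXP 5 each had 31 genes below the lowest control, HXP 4 had 16 and HXP 6 had 11. HXP 1 had 2 genes below and 11 above the control range, with a median of 0.08, and was the highest HXP library for 19 genes. Thus Acaa2 stood at 167 and 232 FPKM in HXP 3 and HXP 2 but at 454 to 558 in HXP 1, 4 and 6, and Acadm at 120.4 and 155 against 239 to 297. Matrix markers were highest in HXP 3 (7.27) and HXP 2 (6.49), as were white adipocyte markers (4.81 and 4.53), and cardiomyocyte markers were lowest in the same libraries (9.23 and 9.54). HXP 1 had matrix markers above the controls too (5.89) with the highest cardiomyocyte level of all libraries (9.999). The part of these levels in the member values was not tested.

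HXP was set against MI last. No gene of fatty acid uptake or oxidation was called in either direction (0.0% of all genes lower and 0.0% higher), no member had an unadjusted p below 0.05, and the smallest adjusted p was 0.383. Of the 39 values 28 were positive, with a median of 0.08, against -0.12 over all genes. No member had separate groups, against 0.306% of all genes below and 0.117% above. Acad12 had 8.65, 11.2 and 14.8 FPKM in HXP and a log2 fold change of 0.24 (SE 0.12, adjusted p = 0.383). Echs1 had 21.1, 32.9 and 40.7 (0.25, adjusted p = 0.409), Acad11 10.1, 13.9 and 18.3 (0.21, adjusted p = 0.420), Hadhb 69.9, 134 and 179 (0.32, SE 0.20, adjusted p = 0.441), Acsl1 38.4, 65.6 and 81.3 (0.35, SE 0.22, adjusted p = 0.448), and Acad10 had a value of 0.16 (adjusted p = 0.394).

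The most negative value was that of Ucp2 (log2 fold change -0.40, SE 0.23, adjusted p = 0.411). Acad8 had 6.77, 7.86 and 9.30 FPKM in HXP (-0.12, adjusted p = 0.495), Acaa1a 5.24, 11.4 and 16.4 (-0.26, adjusted p = 0.503), Slc27a1 9.01, 15.9 and 27.2 against 14.4, 17.6 and 23.3 in MI (-0.25, adjusted p = 0.552), Acads -0.22 (adjusted p = 0.631) and Acot2 -0.16 (adjusted p = 0.642). The 2 Cpt1 isoforms were near 0 in this comparison, with Cpt1a at -0.07 (SE 0.17) and Cpt1b at -0.01 (SE 0.12). For Cd36 HXP had 164, 252 and 296 FPKM (0.13), for Acadm 120.4, 233 and 297 (0.29), for Acaa2 167, 409.8 and 558 (0.34) and for Hadha 69.2, 124 and 155 (0.22). These values do not show that the groups are alike. The median over the 39 moved with the setting: it was 0.24 (34 positive) with median-ratio scaling, 0.20 (31 positive) without HXP 3 and 0.16 without MI 6. It was 0.03 without HXP 1, 0.04 without HXP 6, 0.01 without MI 5, 0.01 with scaling to cardiomyocyte markers and -0.08 within the run of 10 libraries, with 27 negative.

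Levels in HXP of the other members are given by role. Of the shuttle, Cpt2 had 29.4, 51.7 and 67.4 FPKM and Slc25a20 17.5, 30.7 and 38.8, both with 4 of 6 HXP libraries below all controls. Slc22a5, the carnitine transporter at the cell surface, had 7.02, 7.77 and 8.66 FPKM, against 7.43, 8.29 and 9.07 in control. Among the dehydrogenases, Acadvl had 128, 223 and 341 FPKM, Acadl 231, 341 and 417, and Acadsb 8.48, 9.23 and 10.5. For Acadvl the HXP libraries lie on both sides of the control range, and its widest values are those of HXP 3 and HXP 1.

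Of the later steps, Hadh had 45.5, 79.0 and 102 FPKM in HXP (log2 fold change against control -0.43, adjusted p = 0.125), with 5 of 6 libraries below all controls. Ehhadh had 2.96, 3.82 and 4.61 FPKM. Of the enzymes for unsaturated chains, Eci1 had 67.5, 132.5 and 206 FPKM, Eci2 10.8, 14.96 and 18.95, and Decr1 38.3, 78.3 and 102. Etfb had 145, 215 and 368 FPKM and Etfdh 30.7, 58.4 and 72.5, with 4 of 6 libraries below all controls in both genes. Acot13 had 129, 192 and 232 FPKM, and Acot1 1.12, 1.18 and 1.61. Ucp3 had 2.82, 9.57 and 18.6 FPKM, Acacb 20.9, 25.6 and 43.9, and Mlycd 11.8, 18.2 and 31.4. In Acadvl, Ehhadh, Acacb, Mlycd and Ucp3 the lowest library was HXP 3.

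Ratios of related genes within a library depend little on its scaling, and 21 were tested (7 pairs, 3 comparisons, exact permutation, two-sided). The log2 ratio of Cpt1a to Cpt1b was -3.52 ± 0.35 in control, -2.67 ± 0.43 in MI and -2.73 ± 0.47 in HXP (SD, n = 6 each). HXP lay above control in all 6 libraries, with a difference of 0.79 (exact permutation p = 0.00216, the smallest that 6 against 6 can give, adjusted p = 0.0455). The ratio was highest in HXP 3 (-2.01) and HXP 2 (-2.25). In HXP 1, 4, 5 and 6 it was -3.09 to -2.92, near the highest control (-3.15). HXP 3 and HXP 2 also had the highest matrix markers of HXP (7.27 and 6.49). The part of cell content in this ratio was not tested. MI differed from control by 0.85 (exact permutation p = 0.00866, adjusted p = 0.0909), with MI 4 (-3.44) inside the control range of -4.03 to -3.15. No other MI library lay in that range, so leaving out MI 4 separates the groups by itself. The MI difference was then 1.01 (exact permutation, adjusted p = 0.0227), which adds no support. Without any other single library the MI difference did not pass (exact permutation, adjusted p of 0.0682 to 0.164). The adjusted p of the HXP difference rose above the threshold without any 1 of control 1, 2 or 4 or HXP 2 or 3 (0.0682 to 0.114). Without HXP 6, where Cpt1b was low with some other members rich in GC, the difference was 0.85 (exact permutation, adjusted p = 0.0455).

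The log2 ratio of Ucp2 to Ucp3 was -1.31 ± 0.87 in control, 0.43 ± 0.99 in MI and -0.11 ± 1.16 in HXP (SD, n = 6 each). The difference of 1.74 between MI and control did not pass (exact permutation p = 0.0130, adjusted p = 0.0909). Hadha and Hadhb, the subunits of 1 complex, kept a ratio near 0 on the log2 scale: -0.07 ± 0.06 in control, 0.01 ± 0.07 in MI and -0.10 ± 0.08 in HXP (SD, n = 6 each). Where this ratio lies depends on the exon lengths used. The difference between HXP and MI was -0.11 (exact permutation p = 0.0476, adjusted p = 0.201). Acot1/Acot2, Acadl/Acadvl, Etfa/Etfb and Acacb/Mlycd had differences between -0.09 and 0.20, with exact permutation adjusted p of 0.201 or more in all 12 tests.

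**Figure D5:**
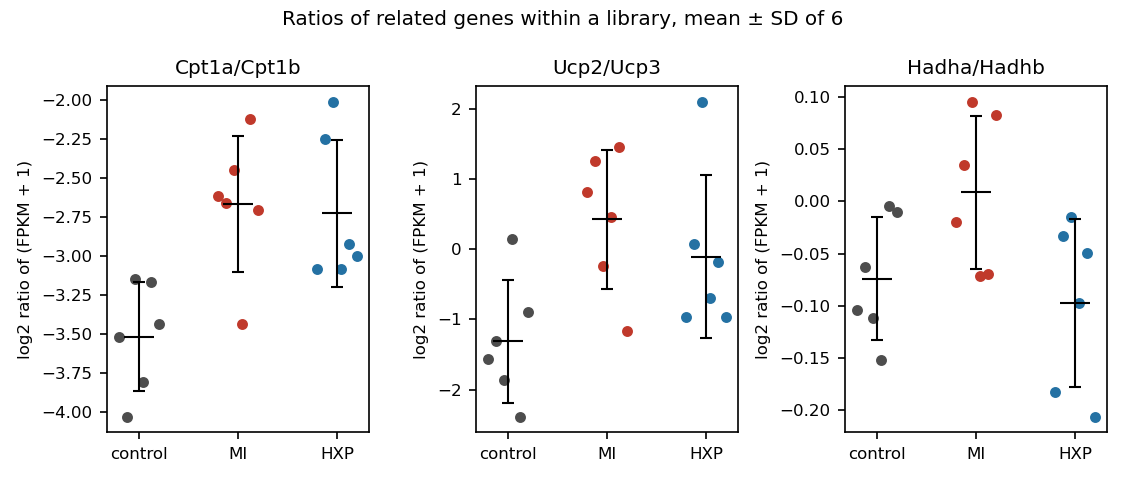
Log2 ratio of (FPKM + 1) within each library (points) for 3 pairs of genes, with the mean and SD of the 6 libraries of a group (bars). For Cpt1a to Cpt1b the HXP points (-3.09 to -2.01) lie above all control points (-4.03 to -3.15), and MI 4 is the MI point within the control range.

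Outside the 39 members, 68 genes of the same biology were followed and 63 were tested. In MI against control 11 fell and 13 rose, where 3.21% of all genes were lower and 40.1% higher, and in both HXP comparisons none was called. Of 14 mitochondrial enzymes tested, 4 fell, 2 rose and 8 were not called. Ech1, a dienoyl-CoA isomerase, stood at 382 ± 51.7 FPKM in control and 237 ± 74.3 in MI (SD, n = 6 each, log2 fold change -0.73, SE 0.25, adjusted p = 0.0284). The other 3 that fell were Hibch, Pcca and Mut, of valine and propionate breakdown, with values of -0.28, -0.30 and -0.40. Among peroxisomal genes 3 fell and 2 rose of 13 tested: Phyh, which starts the oxidation of phytanic acid, fell by 0.45 (adjusted p = 0.0192), Scp2 by 0.24 and Pex11a by 0.34, while Acox3 (0.34) and Decr2 (0.30) rose.

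Of 14 genes of uptake and activation outside the members, 5 rose, 1 fell and 8 were not called. That share of higher genes is near the 40.1% of all genes, and their median of 0.13 compares with 0.27 over all genes. Slc27a3 (0.97), Acsl5 (0.89), Acsl4 (0.55), Slc27a4 (0.46) and Acsl3 (0.31) rose, and Acsl6 fell by 0.32. Acsl5 stood at 3.39 ± 0.484 FPKM in control and 7.26 ± 1.88 in MI (SD, n = 6 each). Cpt1c, the neuronal member of the Cpt1 family, rose to 1.93 ± 0.807 FPKM, with 0.378 ± 0.0924 in control (SD, n = 6 each, log2 fold change 1.04, adjusted p = 0.0143), and Acot9 rose by 0.53. Lpl, the lipase that frees fatty acids at the vessel wall, had -0.43 (adjusted p = 0.0748). Of 10 switch genes tested 4 rose, a share like the 40.1% of all genes, and 1 fell: Acly (0.88), Plin2 (0.36) and Prkab2 (0.32) were among those that rose, and Prkaa2 fell by 0.39. Pdk4 varied from 27.0 to 147 FPKM over control and MI libraries and had a value of 0.09 (adjusted p = 0.861).

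Of the 12 regulators, 2 fell in MI: Esrrg, an estrogen-related receptor (log2 fold change -0.37, SE 0.11, adjusted p = 0.0184), and Lpin1, a coactivator and phosphatidate phosphatase (-0.40, adjusted p = 0.0437). Ppara, the main fatty acid sensing receptor of the heart, had -0.14 (adjusted p = 0.488), Ppargc1a, its coactivator, -0.39 (adjusted p = 0.0602) and Esrra -0.29 (adjusted p = 0.471). Rxra, Ppard, Pparg and Med1 had positive values between 0.18 and 0.24 that did not pass.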

How the data were processed

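The deposited values are FPKM for 34150 Ensembl genes in each library. The file headers do not name the unit, which is inferred: multiplied by merged exon length, 98.1% to 98.6% of low values came to within 0.1 of whole reads. GRCm38 and limma are named, per the submitters' processing notes. The sources used here name no aligner, counting tool or annotation. IDs were matched to GENCODE M21 (34097 matched, 53 not).

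Genes whose mean reached 0.5 FPKM (13710) entered 1 limma fit of log2(FPKM + 1) with 3 groups (limma 3.58.1, R 4.3.3, trend on), two-sided, with Benjamini-Hochberg adjustment over all genes tested. Genes were called at an adjusted p below 0.05. All members are accounted for by role. Values per library, as lowest, median and highest of 6, follow a list of 17 members and, in each comparison, the 6 smallest p of each sign. The members and lists were chosen with earlier results of these data known. Pair ratios were tested by exact permutation. The fit was tested on simulated data. Alternatives were other pseudocounts, filters, scalings, covariates and left-out libraries. Scaling to cardiomyocyte markers, the GC trend (lowess, span 0.3), leaving out MI 4 with MI 5, and combinations of scaling or GC trend with a left-out library were chosen after seeing the data. Replicate numbers did not pair libraries. Values of some pathway genes outside the members are not reported here.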

Additional observations from a re-analysis of the deposited data

Results flagged for a closer look

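In 7 of the 117 sets of 6 libraries (39 genes in 3 groups) the highest or lowest library stood far from the other 5, by the gap to its neighbour over the range of the group on the log2 scale (Dixon's 95% critical value). Chance gives about 1 in 20 such sets. Cpt1a was lowest in MI 4, at 10.6 FPKM, with the next MI library at 15.98. Ehhadh and Acot13 were lowest in MI 5, at 2.18 and 128 FPKM, with the next at 3.69 and 170.2. Control 2 was highest for Acadm (298 FPKM, next 256) and Acads (79.5 FPKM, next 54.7). Eci2 was lowest in control 4, at 15.6 FPKM (next 17.0). Acot1 was highest in HXP 5, at 1.61 FPKM (next 1.25).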

How the results depend on the processing

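In MI against control 21 members fell and 2 rose. The shares in brackets are of all genes tested, lower and higher. With no filter on low values 9 fell and 1 rose (0.685%, 11.4%), with median-ratio scaling 32 and 1 (15.1%, 17.5%), with the run as a covariate 11 fell (2.04%, 28.8%), with MI 1 and MI 2 averaged 12 fell (1.93%, 28.8%), and with scaling to cardiomyocyte markers 12 fell (0.97%, 50.6%). With the GC trend subtracted 32 fell and 1 rose (14.3%, 16.7%), and with median-ratio scaling without MI 5, 10 and 1 (5.22%, 9.22%). The GC step also recentres each library, so it is a scaling as well: the median over all genes was 0.00, against 0.27 in the main fit. The run of 10 libraries only, and leaving out MI 4 and MI 5 together, gave 0 and 0, with fewer libraries in both (0.0365%, 0.54% and 0.0%, 0.0%). With quantile normalization (17.3%, 13.2%) and with non-mitochondrial scaling (9.58%, 22.3%) 1 rose. Leaving out each library in turn, 1 to 25 fell and 1 to 2 rose, with 9 lower without control 2, 13 without MI 1, 10 without MI 2, 13 without MI 3 and 1 without MI 5. Acad10 reversed with the GC trend subtracted, to -0.27 (adjusted p = 0.0470). In HXP against MI 0 members were called under every alternative run. In HXP against control 1 member fell with median-ratio scaling (5.42%, 3.84%), 6 fell and 3 rose without HXP 5 and HXP 6 together (2.65%, 40.9%), and 22 fell and 1 rose with median-ratio scaling without HXP 6 (12.2%, 13.3%). With the GC trend subtracted 14 fell and 1 rose without HXP 6 (9.86%, 13.0%), and 1 rose with it (4.09%, 3.83%). Leaving out each library in turn, 0 to 6 fell and 0 to 2 rose (6 and 2 without HXP 6, 1 lower without HXP 1). Other causes of these differences were not tested.

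The difference of the Cpt1a to Cpt1b ratio between HXP and control was 0.79. It was 0.79 with the replicate block (exact permutation, adjusted p = 0.263), 0.88 in the run of 10 libraries only (exact permutation, adjusted p = 0.525), and 0.65 to 0.87 without each library in turn. Before adjustment over all pairs and comparisons, the smallest exact permutation p is 0.03125 for 6 blocked pairs, 0.1 for the 2 HXP and 3 control libraries of that run and 0.00216 for 6 against 5 libraries, so the first and second of these designs were too small for this ratio to pass alone. Between MI and control it was 0.74 to 1.01 without each library in turn. Between HXP and MI it was 0.19 in the run of 10 libraries only and -0.22 (without MI 4) to 0.048 (without MI 5) without each library in turn, against -0.06.

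The replicate numbers of the labels did not pair the libraries: same-numbered libraries deviated together (correlation over 0.1) in 5 of 18 pairs, from -0.31 to 0.64. With the replicate block 18 members fell and 2 rose in MI against control. Depth was 75.7 to 80.9 M reads, and what it limits for each member was not tested.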

Other observations

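A pair of genes outside the 39 members, picked after their values were seen, spread widely over the HXP libraries. Esrra, the estrogen-related receptor alpha, had 44.9 to 52.1 FPKM in control and 43.7, 29.0, 21.2, 29.4, 9.73 and 5.79 FPKM in HXP 1 to HXP 6, below every control in all 6 (log2 fold change -1.26, limma adjusted p = 0.0831). Plin5, which coats lipid droplets beside mitochondria, had 40.7 to 47.6 FPKM in control and 8.85 to 43.6 in HXP (log2 fold change -1.28, limma adjusted p = 0.0628). Both were lowest in HXP 6, and neither passed. The part of base composition in these values was not tested.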
